A study of Caenorhabditis elegans with 4 samples.

Results

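High-ranked NHR-2 peaks that were called in a single replicate are described here, in both directions. The members are nuclear peaks with peak numbers 1 to 5000 in the list of a ChIP-seq replicate that share no base with any peak of the other replicate's list, however weak. There were 1988 of them among 55829 deposited peaks. In replicate 1, 1014 of the 4975 nuclear peaks up to number 5000 (20.4%) had no overlap in replicate 2, against 57.7% of all 29354 nuclear peaks of that list. In replicate 2, 974 of 4978 (19.6%) had no overlap in replicate 1, against 48.1% of all 24127. The members were chosen by peak number and overlap, so the counts by number and overlap are a description with nothing to test.

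Chromatin immunoprecipitation followed by sequencing was used to find the genomic regions occupied by NHR-2 in embryos of the worm Caenorhabditis elegans. All libraries came from strain OP99, grown at 20 °C as a mix of males and hermaphrodites. It has the unc119(ed3) allele and the transgene wgIs99(nhr-2::TY1 EGFP FLAG;unc119), which was brought in by particle bombardment, and was outcrossed 3 times. An anti-GFP antibody collected the tagged protein after crosslinking in 2% formaldehyde. The labels list 2 ChIP libraries and 2 input libraries, and each direction described here rests on 1 ChIP library, so nothing between the directions can be tested against replicate error. Whole embryos were used, so a peak present in few cells and a weak peak in many cannot be told apart. The transgene adds copies of nhr-2 and unc-119, so at these 2 genes binding to the native locus and to the transgene cannot be told apart.

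Nuclear hormone receptors bind short DNA elements through zinc fingers, in many animals under the control of small lipophilic ligands, and regulate transcription of nearby genes. The family is much expanded in nematodes, and nhr-2 is known for its activity in the early embryo. The chromosomes of this worm have no single centromere. Autosomes have a central domain that is rich in conserved and widely expressed genes and recombines little, and 2 arms that recombine more and hold more repeats and more of the chromatin anchored at the nuclear edge. The X chromosome lacks so sharp a division and is under dosage compensation.

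The 3 deposited lists are on the WormBase WS220 build and name the SPP peak caller and the irreproducible discovery rate, which rates peaks by how alike their order is in replicates. They held 29379 peaks for replicate 1, 24151 for replicate 2 and 2299 for the combined list of the series. The score of a peak is the authors' own value, on a scale that is not given in the sources used here. The lowest peak numbers carry the highest scores, though the order is not strict. Scores of the 2 lists are given side by side, but whether the lists share a scale is unknown. Read depth is unknown, and a region absent from a list may still be bound. Members were given no genes and no sequences are shown, because no genome or annotation of WS220 was used here.

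Few of the members stood near the top of their lists. None of the first 100 nuclear peaks of either list was a member. The first member of replicate 1 was peak 479 and the first of replicate 2 was peak 809. Among the first 1000, replicate 1 counted 16 members of 990 nuclear peaks (1.62%, exact 95% interval 0.927 to 2.61%) and replicate 2 counted 2 of 990 (0.202%, 0.0245 to 0.728%). The share without overlap then climbed in both lists. Between numbers 1000 and 2000 it was 9.25% in replicate 1 (7.52 to 11.2%) and 6.45% in replicate 2 (5.0 to 8.16%). Between 2000 and 3000 it was 21.8% and 23.3%, between 3000 and 4000 28.3% in both, and between 4000 and 5000 40.7% and 39.3%. From number 2000 to number 5000 the intervals of both lists overlapped at each step, although the lists differ in length. Of all members, 906 of the 1014 in replicate 1 and 908 of the 974 in replicate 2 had numbers above 2000, so "high-ranked" holds for these peaks mainly as the lower part of the first 5000.

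**Figure D1:**
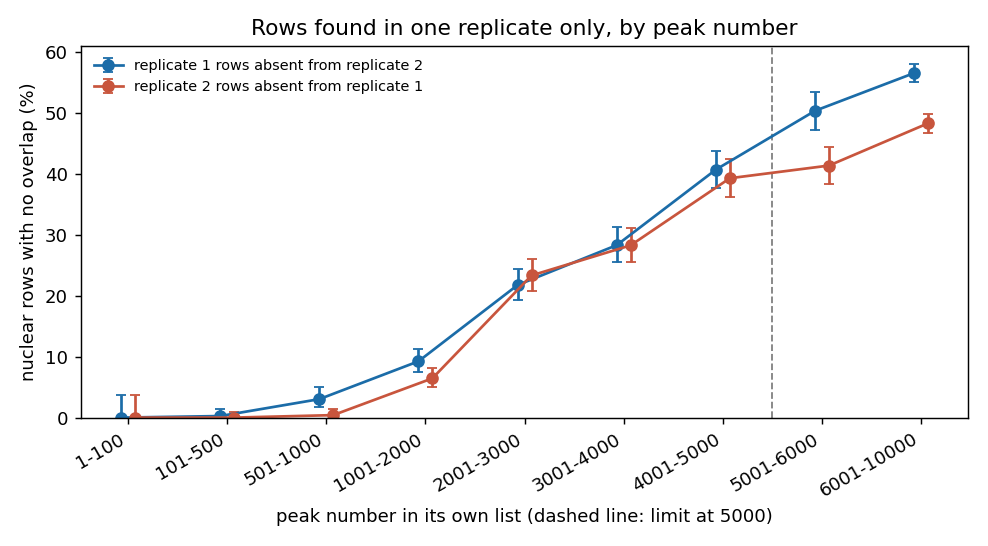
Percent of nuclear peaks with no overlap in the other replicate (y axis) by peak number in their own list (x axis), with exact 95% binomial intervals that cover counting error only. The share is at most 3.03% in any step up to number 1000 and reaches 40.7% and 39.3% between numbers 4000 and 5000.

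The scores behind equal peak numbers differed between the lists, whose scales may not be the same. Members of replicate 1 had a median score of 2.89 (lowest 1.68, highest 3.67), and 167 of them (16.5%) were at the ceiling of 3.67 that 2353 peaks of that list share. Members of replicate 2 had a median score of 0.430 (0.290 to 3.30), and 2 of them were at the ceiling of 3.30 shared by 990 peaks. Other peaks of the lists differed in the same direction. Peaks found in both replicates but in no combined peak had medians of 2.96 in replicate 1 and 0.504 in replicate 2, and 16.2% and 0.233% of them were at the ceiling. Of all nuclear peaks up to number 5000, 47.0% and 19.7% were.

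The limit at number 5000 cut through a continuous range. Just inside it, in the last 200 numbers, 86 of 200 peaks of replicate 1 and 75 of 200 of replicate 2 lacked overlap. Just outside, in the next 200 numbers, the counts were 103 of 200 and 67 of 200. The last members inside were peaks 4999 and 5000 of both lists, with scores of 1.688 and 1.684 in replicate 1 and 0.2903 and 0.2901 in replicate 2. The next peaks without overlap were numbers 5004 (1.684) and 5005 (1.684) in replicate 1 and 5003 (0.2902) and 5007 (0.2890) in replicate 2.

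A small part of the members narrowly missed a peak of the other replicate. The shares that the density of peaks alone would give at the distances below were not computed. In replicate 1, 33 members had fewer than 50 bases between them and the nearest peak of replicate 2, and 46 other peaks of the first 5000 passed the overlap limit with fewer than 50 shared bases. In replicate 2 these counts were 42 and 41. The gap to the nearest peak of the other list had a median of 747 bp in replicate 1 (0 to 26518 bp) and 766 bp in replicate 2 (2 to 24584 bp). Within 500 bp of a peak of the other replicate lay 390 members of replicate 1 (38.5%, 35.5 to 41.5%) and 352 of replicate 2 (36.1%, 33.1 to 39.2%). Beyond 5000 bp lay the few that were far from any call, since 91.7% and 94.4% were within that distance. The intervals of the directions overlapped at both 100 and 500 bp, where 7.30% (5.77 to 9.08%) and 8.62% (6.94 to 10.6%) lay within the shorter distance.

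Most of the nearby peaks of the other list had numbers above 5000, as most peaks of the lists do. For members within 500 bp, the neighbour had a number up to 5000 in 123 of 390 cases in replicate 1 (31.5%, 27.0 to 36.4%) and in 73 of 352 in replicate 2 (20.7%, 16.6 to 25.4%). Over all nuclear peaks, 20.6% of the replicate 2 list and 16.9% of the replicate 1 list have such numbers. The median number of the neighbour was 9093 for members of replicate 1, against 12088 over all nuclear peaks of replicate 2, and 13102 for members of replicate 2, against 14703 over those of replicate 1. Few members of either direction sat beside another member. Within 1 kb of a member of the opposite direction lay 44 members of each direction (4.34% and 4.52%), and within 100 bp 11 of each. Within 1 kb of a member of the same direction lay 6.71% in replicate 1 and 6.67% in replicate 2. By the rule, members of opposite directions cannot overlap, whereas those of the same direction can.

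Nearly all members had the usual width of their list. In replicate 1, 1006 of 1014 members (99.2%) had the list's usual width of 400 bp and the other 8 were narrower, down to 103 bp. In replicate 2, all 974 members had the usual width of 470 bp. Among the first 5000 of replicate 1, 8 of 531 narrower peaks (1.51%, 0.653 to 2.95%) and 0 of 29 wider ones were members, against 22.8% of the peaks of 400 bp. In replicate 2, 0 of 222 narrower peaks (upper bound 1.65%) and 0 of 2 wider ones were members, against 20.5% of those of 470 bp. Peaks of other widths were most frequent among the shared peaks that overlap a combined peak, where 76.3% (replicate 1) and 90.2% (replicate 2) had the usual width. Peaks found in both replicates but in no combined peak had it in 99.9% and 100%, much like the members.

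The 10 members with the lowest numbers in replicate 1 were all at the ceiling of the score, and 5 of them were narrower than 400 bp. The first, peak 479, was 103 bp wide and lay on chromosome I at 2747701 to 2747803, 40 bases from peak 2811 of replicate 2 at 2747191 to 2747660. Peak 2811 is itself a member of the opposite direction, and both overlapped combined peak 1198. On chromosome III, peak 517 at 5139000 to 5139126 overlapped combined peak 1326, with the nearest replicate 2 peak 1235 bases away. On X, peak 525 at 3972404 to 3972538 overlapped combined peak 1071 and lay 1184 bases from a strong replicate 2 peak, number 308. On II, peak 610 at 10784875 to 10784979 overlapped combined peak 1612 and missed peak 8856 of replicate 2 by 37 bases.

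The other 6 of these 10 were peak 721 on III (7570260 to 7570659), peak 725 on X (6051627 to 6052026), peak 736 on I (8985859 to 8986258), peak 785 on II (11238909 to 11239308), peak 816 on X (12172543 to 12172681) and peak 823 on X (8157088 to 8157487). Peaks 721, 725 and 823 overlapped a combined peak, with 314, 360 and 366 bases to the nearest replicate 2 peak. Peak 816 lay 225 bases from combined peak 252. Peaks 736 and 785 were far from any combined peak, at 56445 and 45883 bases. They had the nearest replicate 2 peaks at 683 and 2368 bases (numbers 6961 and 8184).

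In replicate 2 the first 2 members were at the ceiling of the score and the next 8 were below it. Peak 809 lay on X at 7193716 to 7194185, 194 bases from peak 5610 of replicate 1 and 10391 bases from the nearest combined peak. Peak 890 lay on V at 1580328 to 1580797, 116 bases from peak 13556 of replicate 1, and overlapped combined peak 2072. Peak 1033 on II (12225045 to 12225514, score 2.84) and peak 1118 on V (15464930 to 15465399, score 2.50) also overlapped combined peaks, and the nearest replicate 1 peaks were 1927 and 3714 bases away.

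Peak 1043 on III (13105495 to 13105964) missed replicate 1 by 3 bases. Peak 1034 on X (13225465 to 13225934) missed it by 59 bases and peak 1284 on I (2401457 to 2401926) by 100 bases. The remaining 3 were peak 1167 on I (6167589 to 6168058), peak 1211 on II (12099431 to 12099900) and peak 1314 on III (2222181 to 2222650), with gaps of 607, 391 and 4310 bases. Peak 1284 was the one farthest from a combined peak, at 101599 bases. Of the 10 members with the lowest numbers, 7 overlapped a combined peak in replicate 1 and 3 did in replicate 2.

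A small number of members overlapped a peak of the combined list. In replicate 1, 26 members (2.56%, 1.68 to 3.73%) overlapped 24 combined peaks, of which 20 had no overlap at all in replicate 2. In replicate 2, 6 members (0.616%, 0.226 to 1.34%) overlapped 5 combined peaks, of which 4 had none in replicate 1. For comparison, 58.5% and 57.2% of the peaks found in both overlapped a combined peak. The 24 combined peaks had a median number of 1829 of 2299, from 185 to 2292, so most of them had numbers in the later part of the combined list. A later number need not mean a lower score there, because 1737 of the 2299 combined peaks share the highest score.

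The directions differed in their position along the chromosome. Members of replicate 1 lay more often in the chromosome middle and members of replicate 2 more often toward the ends. Of the 1014 members of replicate 1, 587 had their centre in the middle 50% of a chromosome (57.9%, 54.8 to 61.0%), and of the 974 of replicate 2, 414 did (42.5%, 39.4 to 45.7%). Among peaks of the same numbers that were found in both replicates the lists were closer to each other, at 55.7% (54.2 to 57.3%) in replicate 1 and 54.0% (52.5 to 55.6%) in replicate 2. Of the shared peaks that overlap a combined peak, 56.8% and 57.1% were in the middle. Those in no combined peak gave 54.3% (51.8 to 56.7%) and 49.9% (47.5 to 52.3%), and all nuclear peaks of the lists gave 48.6% and 44.7%, so part of the outward placement in replicate 2 was shared by peaks that are no members. The interval of replicate 2 members was below that of each shared set of its list, and the interval of replicate 1 members overlapped each of them. The intervals cover counting error alone and treat neighbouring peaks as independent, which they are not.

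Deciles of the chromosome, pooled over all 6, showed the shape of this difference. In replicate 2 the first and last deciles held 127 (13.0%) and 129 members (13.2%) and the sixth decile 61 (6.26%). In replicate 1 the first and last deciles held 77 (7.59%) and 92 (9.07%), and the fourth and seventh deciles held the most, with 130 (12.8%) and 135 (13.3%). The seventh decile was also the highest for peaks found in both, with 11.7% (10.7 to 12.7%) in replicate 1 and 11.5% in replicate 2. In replicate 1 this interval overlapped that of the members (11.3 to 15.6%). Within 1 Mb of a chromosome end lay 110 members of replicate 1 (10.8%, 9.0 to 12.9%) and 156 of replicate 2 (16.0%, 13.8 to 18.5%). Of the peaks found in both, 12.7% and 12.2% did. Those in no combined peak gave 13.99% (12.3 to 15.8%) and 13.4% (11.8 to 15.1%), with intervals that overlapped those of the members in both lists. All nuclear peaks of the lists gave 13.6% and 14.8%.

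**Figure D2:**
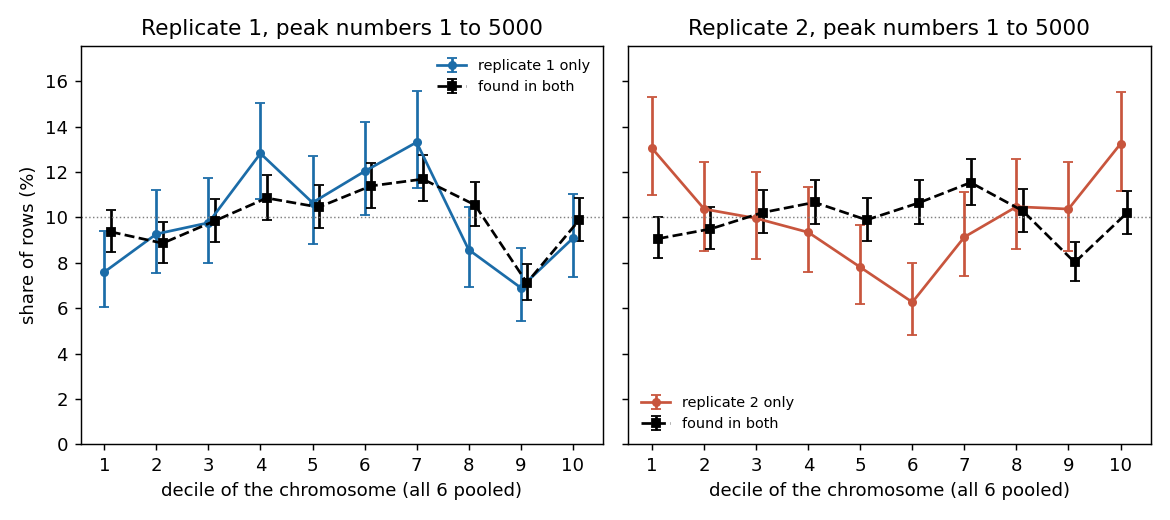
Share of peaks (y axis) in each decile of the chromosome (x axis, all 6 nuclear chromosomes pooled), for members (circles) and for peaks found in both (squares) at numbers 1 to 5000, with exact 95% intervals; the dotted line is an even spread. Members of replicate 2 were highest in the first and last deciles (13.0% and 13.2%) and lowest in the sixth (6.26%), whereas members of replicate 1 peaked in the seventh (13.3%). Peaks found in both also peaked in the seventh, at 11.7% in replicate 1 and 11.5% in replicate 2.

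Each of the 6 chromosomes showed the same order. The share of members in the middle 50% was 55.1% in replicate 1 and 46.6% in replicate 2 on chromosome I, 57.2% and 44.1% on II, and 57.2% and 36.0% on III. It was 56.4% and 40.4% on IV, 62.4% and 44.1% on V, and 58.8% and 44.5% on X. The intervals of the directions did not overlap on III (49.0 to 65.2% against 28.9 to 43.6%), IV (48.6 to 63.9% against 32.9 to 48.1%) and V (54.3 to 70.0% against 36.3 to 52.1%), and they overlapped on I, II and X. These intervals cover counting error alone, with 1 library per direction, and are no test between the directions. On X, 50.7% (47.3 to 54.1%) of the shared peaks of replicate 1 were in the middle, below the 58.8% of its members (51.9 to 65.4%), with intervals that overlapped. The shared peaks of X in no combined peak gave 53.4% (47.8 to 58.9%).

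**Figure D3:**
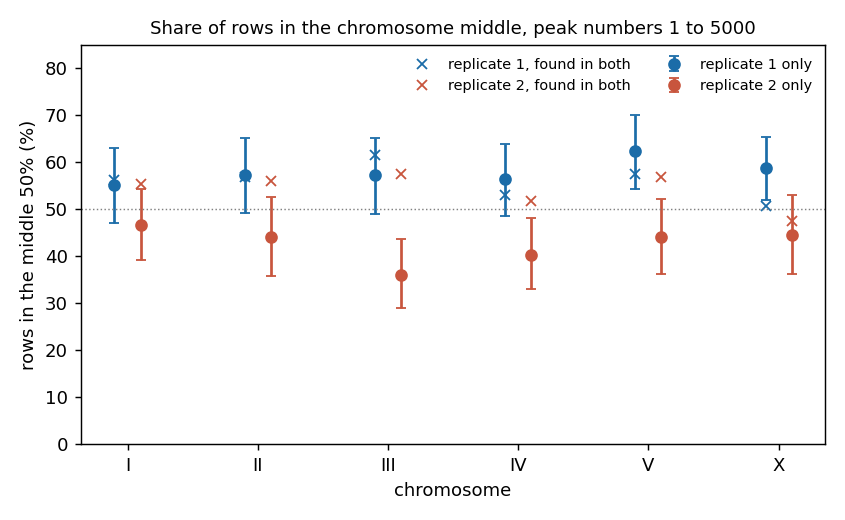
Percent of peaks in the middle 50% of each chromosome (y axis) by chromosome (x axis), for members (circles with exact 95% intervals) and peaks found in both (crosses) at numbers 1 to 5000. Members of replicate 1 lie above members of replicate 2 on all 6 chromosomes, from 55.1% against 46.6% on I to 57.2% against 36.0% on III.

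The order held at each step of peak number above 1000. Between 2000 and 3000 the middle 50% held 62.0% of members against 55.2% of shared peaks in replicate 1, and 43.3% against 53.2% in replicate 2. Between 3000 and 4000 the values were 58.0% and 54.9% in replicate 1, and 43.5% and 52.9% in replicate 2. Between 4000 and 5000 they were 53.6% and 51.5% in replicate 1, and 40.1% and 50.4% in replicate 2. Beyond number 10000, 46.1% of all peaks of replicate 1 and 42.5% of those of replicate 2 lay in the middle. The share of replicate 2 members in the middle was therefore that of the weakest peaks of their own list, and the share of replicate 1 members, 57.9%, was above that of theirs.

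The coverage of the other list moved with position. Peaks of replicate 2 covered 9.39% of the middle 50% and 11.7% of the outer 50% of the chromosomes, so a replicate 1 peak had fewer bases to meet in the middle. Peaks of replicate 1 covered 10.7% and 11.4%. The part of this coverage in the placement of members was not tested. Seen per stretch, 21.0% of the replicate 1 peaks up to number 5000 in the middle 50% were members (19.5 to 22.6%) and 19.6% of those in the outer 50% (17.9 to 21.3%). In replicate 2 these shares were 16.1% (14.7 to 17.5%) and 23.3% (21.6 to 25.1%).

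The chromosomes also took different shares of the directions, most of all X. On X lay 216 members of replicate 1 (21.3%, 18.8 to 24.0%) and 146 of replicate 2 (15.0%, 12.8 to 17.4%), while X is 17.7% of the nuclear length. That is 12.2 members per Mb on X in replicate 1 and 8.24 in replicate 2. The difference depended on peak number. Between numbers 4000 and 5000, X held 66 of 407 members of replicate 1 (16.2%) and 64 of 392 of replicate 2 (16.3%). Between 3000 and 4000 the X shares were 25.4% and 13.8%. Of the shared peaks up to number 5000, 22.0% were on X in replicate 1 (20.7 to 23.3%) and 19.4% in replicate 2 (18.2 to 20.7%). Members of replicate 2 were thus below all shared peaks of their list, but not below the shared peaks that lie in no combined peak, of which 15.2% were on X (13.5 to 16.9%). In replicate 1 that set had 20.0% (18.0 to 22.0%). The lower X share in replicate 2 was thus shared by peaks that are no members. Peaks of replicate 2 covered 9.90% of X and 10.7% of the autosomes, and peaks of replicate 1 covered 11.2% and 11.1%, and the part of this coverage in the X share was not tested.

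On the autosomes the directions were closer. Chromosome IV held 172 members of replicate 1 (17.0%, 14.7 to 19.4%) and 171 of replicate 2 (17.6%, 15.2 to 20.1%), and V held 157 (15.5%, 13.3 to 17.9%) and 161 (16.5%, 14.2 to 19.0%). In both lists IV and V took a larger share of the members than of the shared peaks. Shared peaks were on IV in 13.8% and 14.6% of cases and on V in 13.7% and 12.9%. The intervals of members and shared peaks were separate for V in replicate 2 (14.2 to 19.0% against 11.8 to 13.9%) and overlapped in the other 3 cases. Against the shared peaks in no combined peak, which were on V in 12.9% of cases in replicate 2 (11.4 to 14.6%) and on IV in 16.2% (14.5 to 18.0%), the intervals of the members overlapped for both chromosomes. V still had the fewest members per Mb, 7.50 and 7.70, against 10.1 and 9.72 over all nuclear chromosomes. Chromosomes I, II and III held 158 and 178, 159 and 143, and 152 and 175 members of replicates 1 and 2.

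**Figure D4:**
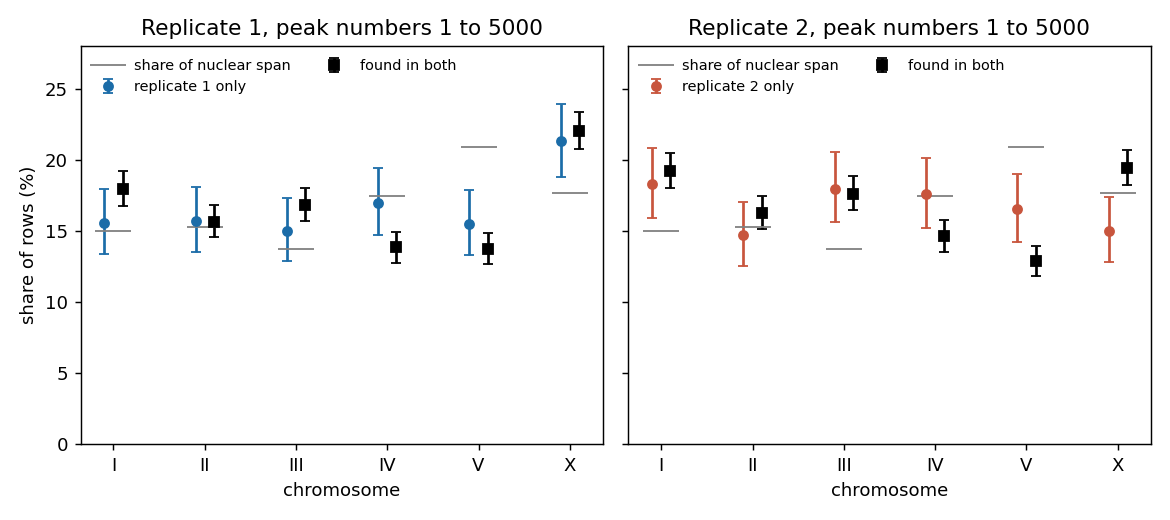
Share of peaks on each chromosome (y axis) for members (circles) and peaks found in both (squares) at numbers 1 to 5000, with exact 95% intervals; grey bars mark the chromosome's share of the nuclear length. X holds 21.3% of the members of replicate 1 and 15.0% of those of replicate 2, and V lies below its length share (20.9%) in all 4 sets.

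Members of replicate 1 lay closer to combined peaks than members of replicate 2 did. The median distance to the nearest combined peak was 10618 bp in replicate 1 (quartiles 2199 and 31609 bp) and 18363 bp in replicate 2 (6421 and 39703 bp). The values depend on the rule, with medians of 4140 and 12145 bp for numbers 1 to 2500 and of 5568 and 10058 bp when only a reciprocal overlap of 50% counts as found, and the order stayed the same. Within 1 kb, the overlapping ones included, lay 167 members of replicate 1 (16.5%, 14.2 to 18.9%) and 76 of replicate 2 (7.80%, 6.20 to 9.67%). Within 10 kb lay 48.4% (45.3 to 51.5%) and 32.6% (29.7 to 35.7%). Farther than 100 kb lay 40 members of replicate 1 and 53 of replicate 2, up to 509690 and 606164 bp.

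Part of this contrast was shared by peaks that are no members. Peaks found in both replicates but in no combined peak, the set most like the members in number and width, had medians of 11687 bp in replicate 1 and 14986 bp in replicate 2. Within 1 kb of a combined peak lay 13.3% (11.7 to 15.1%) of them in replicate 1 and 8.10% (6.86 to 9.50%) in replicate 2. At 10 kb, the members of replicate 2 (32.6%, 29.7 to 35.7%) were below this set of their own list (40.4%, 38.1 to 42.8%), while in replicate 1 the values were 48.4% and 46.7%.

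The distance also moved with position, since combined peaks numbered 26.1 per Mb in the middle 50% and 19.8 per Mb in the outer 50%. Inside the middle 50% alone the medians were 9435 bp for members of replicate 1 and 15245 bp for members of replicate 2, and in the outer 50% 12690 and 21897 bp. The order of the directions was therefore the same within each stretch. On X the medians were 8954 and 10470 bp, and on the autosomes 11193 and 20160 bp.

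**Figure D5:**
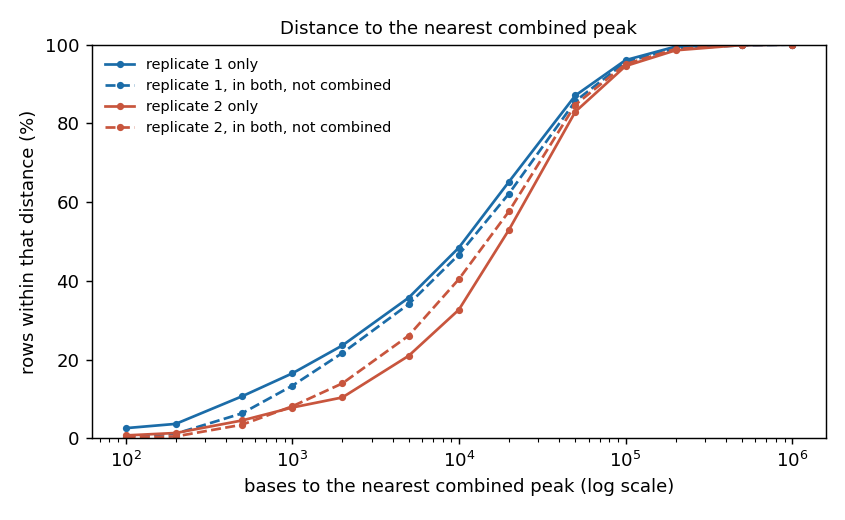
Percent of peaks (y axis) within a given distance of the nearest combined peak (x axis, log scale), for members (solid) and for peaks found in both but in no combined peak (dashed). At 10 kb the members of replicate 1 reach 48.4% and those of replicate 2 32.6%, with the dashed sets at 46.7% and 40.4%.

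Within their own lists the members were often near another peak, but less often than the peaks found in both. Within 1 kb of another peak of their list lay 68.2% of members in replicate 1 and 60.5% in replicate 2. Of the peaks found in both, 73.7% and 69.8% did, and of those in no combined peak 70.3% and 65.9%. In replicate 1 the interval of the members (65.3 to 71.1%) overlapped that of the set in no combined peak (68.0 to 72.5%). Of the members of replicate 1, 208 (20.5%, 18.1 to 23.1%) overlapped another peak of replicate 1, against 25.1% (23.8 to 26.5%) of the peaks found in both. In replicate 2, 303 (31.1%, 28.2 to 34.1%) did, against 35.7% (34.3 to 37.2%). A peak of the same list that was itself found in both lay within 1 kb of 377 members of replicate 1 (37.2%, 34.2 to 40.2%) and of 286 members of replicate 2 (29.4%, 26.5 to 32.3%). Those members stood beside a region that both libraries called. The share of other peaks with such a neighbour was not computed.

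Members were spread over nearly the whole genome rather than gathered at a few loci. Linked at up to 10 kb between centres, the 1014 members of replicate 1 formed 862 clusters, of which 737 held a single member and 3 held 4 or more. The 974 of replicate 2 formed 852 clusters, 746 of them single and 2 with 4 or more. Of 203 bins of 500 kb, 199 held a member of replicate 1 and 201 a member of replicate 2, with medians of 5 and 4 members. The same counts are not given here for other peaks, so whether the members are spread differently is not known.

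The cluster with the most members lay on chromosome I at 2741065 to 2752514, with 5 members of replicate 1, 1 of replicate 2 and 4 combined peaks. It contains peak 479, the member with the lowest number, and its opposite neighbour described above. The next in replicate 1 were clusters of 4 on III at 7537665 to 7551321 and on X at 16927951 to 16943306. In replicate 2 clusters of 4 lay on III at 11627655 to 11632646, with 0 combined peaks inside, and on X at 4150769 to 4161296, with 1. A further 12 clusters of replicate 2 held 3 members, the first of them on I at 13634753 to 13637641.

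The bin of 500 kb with the most members of replicate 1 was on III from 7500001 to 8000000, in the middle of that chromosome. It held 14 members among 46 replicate 1 peaks up to number 5000, 2 members of replicate 2 and 23 combined peaks. For replicate 2 it was a tie at 13 members between the bins on I and on V from 1500001 to 2000000, near the left ends, among 34 and 35 replicate 2 peaks up to number 5000, with 4 and 2 members of replicate 1 and 10 and 14 combined peaks.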

How the data were processed

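Peak lists were analysed, 1 for each of 2 ChIP libraries and 1 combined list. Per the file headers, positions are on WormBase WS220, and the source column names SPP with the irreproducible discovery rate. Each peak's score and peak number are as deposited by the authors. How reads were aligned, which thresholds were set and how the combined list was made is not given in the sources used here. The 2 input libraries have no list here, and depth is unknown.

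Overlap meant at least 1 shared base. Distances are bases between edges. Chromosome length ran to the last deposited peak, and the middle 50% from 25 to 75% of it. Intervals are exact Clopper-Pearson (95%), for counting error only. Nothing in the labels says whether replicates came from separate cultures. No p-value was computed, because members were chosen by the overlap and each direction is 1 library. Named regions were the 10 lowest peak numbers, the 3 largest clusters (10 kb) and the fullest 500 kb bin per direction, and peaks beside number 5000. Members, measures and this rule were chosen with earlier results of these data known. Mitochondrial peaks were left out. Tested on 20 simulated list pairs, overlaps equalled those of bedtools 2.31.1 in 20. Software: scipy 1.17.1, pandas 2.3.3, numpy 2.4.6, matplotlib 3.10.9, Python 3.11.15.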

Additional observations from a re-analysis of the deposited data

Results flagged for a closer look

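Mitochondrial peaks stand outside the nuclear comparison, and some of them also lacked a partner. At peak numbers 1 to 5000, 4 of 25 mitochondrial peaks of replicate 1 overlapped no peak of replicate 2 (16.0%, exact 95% interval 4.54 to 36.1%), and 3 of 22 of replicate 2 overlapped none of replicate 1 (13.6%, 2.91 to 34.9%). They are listed because these data enter no comparison and the count in replicate 1 is above 3, the limit set for listing. The count in replicate 2 is not above that limit. The nuclear shares, 20.4% and 19.6%, lie inside both of these intervals. The lowest number among these was that of peak 269 of replicate 2, below that of any nuclear member of that list (809). In replicate 1 the lowest number was 895.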

How the results depend on the processing

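Values are given for replicate 1, then replicate 2. With numbers 1 to 2500 there were 206 and 159 members (8.30% and 6.41% of nuclear peaks), 65.0% and 48.4% in the middle 50%, 25.7% on X in replicate 1, and median distances to a combined peak of 4140 and 12145 bp. With numbers 1 to 10000 there were 3782 and 3321 (37.9% and 33.3%), at 14104 bp in replicate 1. In the first 20% of each list 24.8% of replicate 1 peaks lacked overlap. Counting a peak within 500 bp as found left 624 and 622 (12.5% in both), at 13625 and 20351 bp. Asking for a reciprocal overlap of 50% gave 1722 and 1810 (34.6% and 36.4%), at 5568 and 10058 bp, with 47.4% in the middle in replicate 2. With the first 10000 of the other list alone counted, 1656 and 1744 (33.3% and 35.0%) were members. These counts change by construction. The middle 33.3% held 41.4% and 25.7%. Replicate 1 members had the higher share on X in 9 of 9 alternatives, the higher share in the middle in 11 of 11 and the shorter distance in 9 of 9. Of these, 3 settings were chosen after seeing the data, namely leaving out members in combined peaks, leaving out X, and numbers above 2000. The alternatives share many members, and within numbers 4000 to 5000 alone the X order did not hold (16.2% and 16.3%). No paired analysis was possible because members come from no test and inputs have no list; leaving out a replicate leaves no overlap to judge. Depth is unknown, so a missing peak may lie under the limit of detection.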
